A study of Mus musculus with 8 samples.

Results

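The 10 genes described here are the transcription factor NRF2 (*Nfe2l2*), its inhibitor *Keap1*, and 8 established NRF2 target genes: *Nqo1*, *Gclc*, *Gclm*, *Gsr*, *Srxn1*, *Txnrd1*, *Hmox1* and *Slc7a11*. They were chosen by symbol from the 27179 genes of a liver RNA sequencing table, and all 10 were found. The livers came from adult male C57BL/6NHsd mice after a 6 h fast, 4 wild-type and 4 homozygous for the V227A substitution in PPARɑ. PPARɑ is the nuclear receptor that drives hepatic fatty acid catabolism in fasting. The variant allele was made by adenine base editing of zygotes and comes from 1 founder line that was backcrossed to the same strain, and the mice compared were bred from heterozygotes. The level used for every gene is the authors' average over all 8 libraries of both genotypes. Values per mouse and per genotype were not analysed here, so the text describes how strongly each gene was expressed in these livers and makes no statement on a difference between V227A and wild-type.

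In unstressed cells the KEAP1 protein holds NRF2 in the cytoplasm and presents it to a CUL3 ubiquitin ligase, so that NRF2 is degraded soon after it is made. Electrophiles and oxidants modify cysteines of KEAP1, NRF2 then accumulates, pairs with a small MAF protein in the nucleus, and binds antioxidant response elements (AREs) near its target genes. The targets supply glutathione and thioredoxin, reduce quinones, degrade heme and generate NADPH. Liver clears drugs, bile pigments and dietary electrophiles.

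The ARE core was searched as TGACNNNGC on both strands of the RefSeq promoter windows of GRCm38.p6, which run from 250 bases before to 50 bases after each annotated start. Windows were given for 7 of the 10 genes. No window was given for *Gclc*, *Gsr* and *Hmox1*. At least 1 core lay in the windows of 4 of the 7 genes, *Nfe2l2*, *Gclm*, *Srxn1* and *Txnrd1*. Of all 27025 genes with a window 14.0% hold the core in at least 1 of them, as do 16.4% of the 13556 such genes that had reads in these livers. The *Srxn1* core counted here lies after the start and is not printed. The stretches below hold the TGACNNNGC cores of *Nfe2l2*, *Gclm* and *Txnrd1*, and TGAGNNNGC cores, taken up further below, of *Slc7a11* and *Srxn1*. Each is printed 5′ to 3′ in lower case, on the strand on which the core reads TGAC or TGAG, with the core in capitals. For *Srxn1* the gene's own strand is printed, and its first core is therefore capitalised in reverse complement. No stretch is printed downstream of the start to which its window belongs.
Nfe2l2, chr2:75704855-75704913, minus strand: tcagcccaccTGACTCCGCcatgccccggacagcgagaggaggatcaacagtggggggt
Gclm, chr3:122245383-122245471, minus strand: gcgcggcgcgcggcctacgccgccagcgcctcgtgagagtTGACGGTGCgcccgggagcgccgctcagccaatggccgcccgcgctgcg
Txnrd1, chr10:82859074-82859162, minus strand: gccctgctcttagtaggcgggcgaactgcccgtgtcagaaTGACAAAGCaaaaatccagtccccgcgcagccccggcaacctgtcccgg
Slc7a11, chr3:50443662-50443750, plus strand: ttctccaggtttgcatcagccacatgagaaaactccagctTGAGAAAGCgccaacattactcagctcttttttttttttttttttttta
Srxn1, chr2:152105274-152105515, plus strand: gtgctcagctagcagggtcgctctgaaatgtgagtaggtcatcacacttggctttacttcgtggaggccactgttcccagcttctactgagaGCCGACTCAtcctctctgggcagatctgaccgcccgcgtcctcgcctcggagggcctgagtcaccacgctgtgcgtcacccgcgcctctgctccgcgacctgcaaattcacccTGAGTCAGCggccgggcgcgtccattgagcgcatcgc

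The *Nfe2l2* core, TGACTCCGC, began 240 bases before the start of its own gene and lay in an exon of *E030042O20Rik*, a gene annotated on the other strand. In *Gclm* the core TGACGGTGC lay from 134 to 126 bases before the start, between annotated genes. *Txnrd1* has 3 windows, for alternative starts, and its core TGACAAAGC was found in the second of them, 92 to 84 bases before the start at position 82859206 of chromosome 10. That place is within an intron of the longer *Txnrd1* transcripts. The *Srxn1* match to TGACNNNGC was TGACCTAGC, from 28 to 36 bases after the start, in an exon of the gene.

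When TGAGNNNGC was admitted as well, a choice made after seeing the data, *Srxn1* gained 2 cores and *Slc7a11* 1, and 5 of the 7 genes held a core. Of all genes with a window, 30.8% hold one of these 2 forms, and 34.8% of those with reads. The core nearest to the *Srxn1* start, TGAGTCAGC, began 45 bases before it. Its first 7 bases are also, read on the opposite strand, the AP-1 motif TGACTCA, which 5.95% of all genes with a window hold. A further TGACTCA lay 102 to 96 bases before the *Srxn1* start, outside any ARE core. No member other than *Srxn1* had a TGACTCA in its window. *Keap1* and *Nqo1* held neither form of the core within their windows, which says only that these letters are not in those 300 bases. A match to a motif is a description of sequence, and NRF2 binding was not measured.

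**Figure D1:**
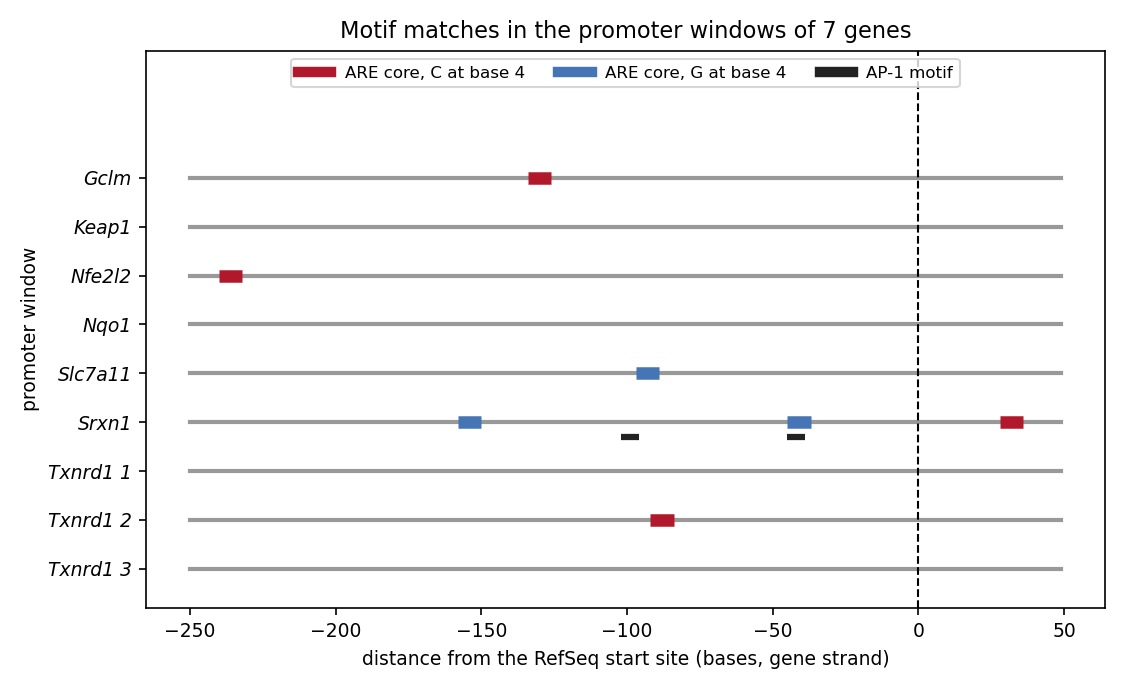
Promoter windows of 7 genes from 250 bases before to 50 bases after the RefSeq start (dashed line), with matches to the ARE core having C at base 4 in red, G at base 4 in blue, and the AP-1 motif in black below the line. *Srxn1* holds 3 cores in all, and the one 45 bases before its start overlaps an AP-1 motif.

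Levels are given as average log2 CPM, CPM being the read count scaled to library size, on a log2 scale, and, wherever genes are compared, per kilobase of exon, with all annotated exons of a gene merged unless another length is named. Merged exons can be longer than any 1 transcript, and 27 of 58 other NRF2 pathway genes were over 1.5 times higher per kb when the principal transcript set the length. The mean library held an estimated 27473997 reads, and 18937 genes had reads. The median gene with reads and a known length had an average log2 CPM per kb of 0.19. Of the 10 genes, 9 lay above that median, 8 of them above the 75th percentile and 2 above the 90th. With principal transcripts these counts were 9, 7 and 1. No SD can be given, because the level is a single average. The 95% intervals of read totals below are exact Poisson intervals of the estimated reads over 8 libraries. Those of ratios use a normal approximation on the log scale, with Poisson variances of the read totals. Both kinds cover counting error only, not the spread between mice.

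The liver label was checked against markers. The 6 hepatocyte markers lay between 8.38 (*Cps1*) and 14.86 (*Alb*, serum albumin) in average log2 CPM per kb, at or above percentile 99.1. Markers of other cells were present at lower levels. Kupffer cell and macrophage markers ran from 0.56 (*Adgre1*) to 5.05 (*Clec4f*) and endothelial markers from 0.35 (*Kdr*) to 3.94 (*Clec4g*). The range was -0.05 (*Reln*) to 4.09 (*Dcn*) for stellate cells and -2.42 (*Krt7*) to 1.02 (*Krt19*) for cholangiocytes. Lymphocyte markers reached at most -1.94 (*Cd79a*, lowest *Ms4a1* at -4.82), the neutrophil genes *S100a8* and *S100a9* -1.39 and -0.08, and the hemoglobin genes *Hba-a1* and *Hbb-bs* 4.49 and 6.67. In whole liver, the share of each cell type in a gene's level, and fewer cells of a type against less RNA per cell, cannot be told apart.

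Both regulators were well expressed. *Nfe2l2* (chr2:75675513-75704641, minus strand) had an average log2 CPM of 5.33 and, per kb, 3.41, percentile 84.3 of genes with reads. An estimated 1107 reads per library stand behind it. *Keap1* (chr9:21229730-21239361, minus strand) had 6.01, and 3.78 per kb, from an estimated 1770 reads per library. Per kb, *Keap1* was therefore 1.29 times as abundant as *Nfe2l2* (95% counting interval 1.26 to 1.33), and 1.10 times when the principal transcripts set the lengths. The mRNAs of the factor and of its inhibitor thus lay close together, and whether they differ beyond the spread between mice is unknown. In its exons *Keap1* shares 510 bases with *Gm16754*, an antisense gene. The strand setting of the counting is not given in the sources used here, so reads of that part could belong to either gene.

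The wider list of regulators, 12 genes, had a median average log2 CPM per kb of 1.93, below both *Nfe2l2* and *Keap1*, and 10 of the 12 were above the median of all genes with reads (11 with longest or principal transcripts). *Sqstm1*, whose product p62 can displace NRF2 from KEAP1, was the highest at 6.90. It was 8.71 times as abundant per kb as *Keap1* (95% counting interval 8.56 to 8.87). *Nfe2l1*, the related factor NRF1 that responds to proteasome shortage, followed at 4.80, or 2.62 times *Nfe2l2* per kb (1.99 times with principal transcripts). The third, *Nfe2l3*, had an estimated 24 reads over all 8 libraries and the lowest level, -4.03. Among the NRF factors the order was thus *Nfe2l1*, *Nfe2l2*, *Nfe2l3*.

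*Cul3*, the scaffold of the ligase that KEAP1 serves, had 3.54 per kb, 0.846 times the level of *Keap1*. Of the small MAF partners, *Mafg* had 2.42, *Mafk* 1.84 and *Maff* 0.83 in average log2 CPM per kb. *Mafg* exceeded *Maff* 3.05 times per kb, and all of them lay below *Nfe2l2*. *Bach1*, a heme-sensitive repressor that competes for the same sites, had 2.03, and *Nfe2l2* was 2.61 times as abundant per kb. *Btrc*, an adaptor of the second route of NRF2 degradation, had -0.33 with merged exons, which are much longer than its transcripts, and 2.17, above the median of genes with reads, with the principal transcript. *Crebbp*, a coactivator, had 0.72 with merged exons.

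**Figure D2:**
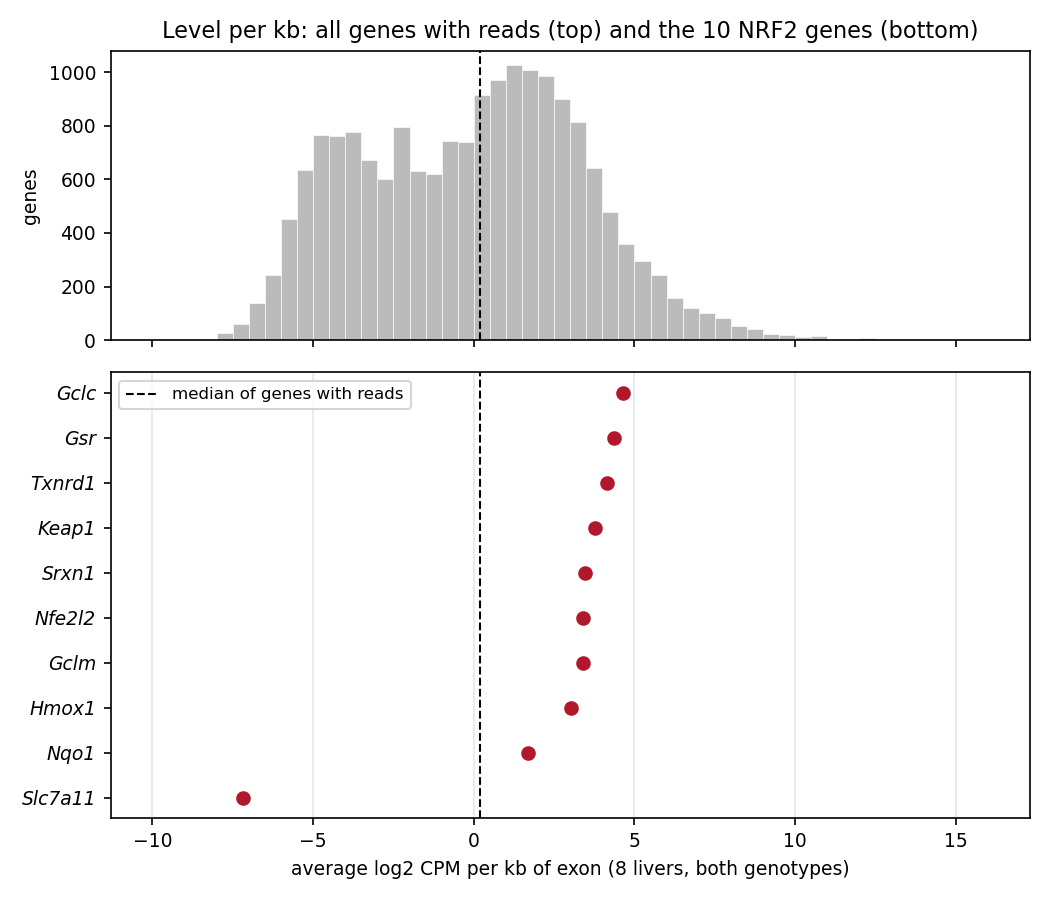
Average log2 CPM per kb of exon over 8 livers of both genotypes: histogram of all genes with reads and a known length (top) and the 10 NRF2 genes (bottom), with the median of genes with reads, 0.19, as a dashed line. Right of the line lie 9 points, from 1.69 (*Nqo1*) to 4.65 (*Gclc*), while *Slc7a11* lies far left at -7.19.

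With merged exons the glutathione genes held the highest and the lowest level of the 10. *Gclc* (chr9:77754535-77794485, plus strand), the catalytic subunit of the rate-limiting enzyme of glutathione synthesis, had an average log2 CPM of 6.57 and 4.65 per kb, percentile 92.0. With principal transcripts it stood second to *Txnrd1*. *Gclm* (chr3:122245557-122270732, plus strand), the modifier subunit, which improves the affinity of the enzyme for its substrates, had 6.05, or 3.40 per kb. The catalytic subunit thus exceeded the modifier 2.38 times per kb (95% counting interval 2.33 to 2.43), and 2.33 times with principal transcripts. This ratio hardly moved with the definition of length. *Gclm* shares 296 exon bases with *Gm17494* on the other strand and 244 with the pseudogene *Gm6061* on its own strand.

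*Gsr* (chr8:33652523-33698163, plus strand), glutathione reductase, which returns oxidized glutathione to its reduced form with NADPH, had 5.83 and, per kb, 4.36. It was 1.95 times as abundant per kb as *Gclm*. *Gss*, which completes glutathione synthesis, had 3.55 per kb, close to *Gclm*, whose level was 0.905 times that of *Gss*. That ratio fell to 0.338 with principal transcripts, because the merged exons of *Gss* are much longer than its principal transcript.

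*Slc7a11* (chr3:49892526-50443614, minus strand) encodes xCT, the cystine importer that supplies cysteine for glutathione in many cultured and tumour cells. In these livers it was nearly undetected. Its average log2 CPM of -3.39 lay just above the value of genes without reads, -3.78. That corresponds to 0.628 reads per library, or an estimated 5 reads over all 8 libraries (95% counting interval 1.62 to 11.7). Its partner *Slc3a2*, the heavy chain that also serves other amino acid transporters, had an estimated 1034 reads per library and 3.42 per kb. By estimated reads per kb, *Slc3a2* exceeded *Slc7a11* 6489 times (95% counting interval 2707 to 15556), an imprecise value because so few *Slc7a11* reads stand behind it. *Slc7a11* was the single member under 1 estimated read per library. Its level per kb of -7.19 is set mainly by the prior count that the fit adds to every gene and is no measure of expression.

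Among the 7 other glutathione genes, 5 were above the median of genes with reads. *Gpx1*, the main cytosolic glutathione peroxidase, had 10.63 per kb, beside 10.62 for *Mgst1*, the other leading gene of the wider list. With principal transcripts *Mgst1* was the higher of the pair, 11.40 against 11.05. *Gpx4*, which reduces lipid peroxides, had 4.57. *Gpx2*, a peroxidase typical of the gut epithelium, and *Ggt1*, which breaks down extracellular glutathione, were near the bottom at -3.75 and -4.26, with 4.57 and 2.90 estimated reads per library. *Glrx*, a glutaredoxin, had 2.19, and 4.22 with its principal transcript. In this group, then, the peroxidase and the synthesis and reductase genes were expressed, while xCT, *Gpx2* and *Ggt1* had few reads.

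The thioredoxin arm was represented by 2 members. *Txnrd1* (chr10:82833951-82897712, plus strand), the cytosolic selenoprotein reductase of thioredoxin, had the highest average log2 CPM of the 10 before division by length, 6.97, from an estimated 3435 reads per library. Its merged exons, from 8 annotated transcripts, span 7086 bases against 3531 for its principal transcript. Per kb it therefore ranked 3 of the 10, at 4.14, but first, at 5.15, with the principal transcript. Accordingly *Txnrd1* was 0.858 times as abundant as *Gsr*, the reductase of the parallel glutathione system, with merged exons, and 1.67 times with principal transcripts, so the order of these reductases depends on the definition. The mitochondrial paralog *Txnrd2* was lower under each definition, with *Txnrd1* exceeding it 2.21 to 2.90 times.

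*Srxn1* (chr2:152105516-152111376, plus strand), sulfiredoxin, repairs peroxiredoxins whose cysteine has been overoxidized. It had an average log2 CPM of 4.96 and, per kb, 3.46, from an estimated 853 reads per library. *Prdx1*, one of the peroxiredoxins it repairs, was 20.7 times as abundant per kb (27.4 times with principal transcripts). Next to *Srxn1* in order stood *Nfe2l2* and *Gclm*, at 3.41 and 3.40. The ratio of *Srxn1* to *Nfe2l2* was 1.04 with merged exons (95% counting interval 1.01 to 1.07) and 0.679 with principal transcripts, so these neighbours have no fixed order.

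All 8 wider genes of the thioredoxin and peroxiredoxin group lay above the median of genes with reads, with a median of 5.70 per kb, above both members. The peroxiredoxins *Prdx1* and *Prdx6* had 7.83 and 7.21, and thioredoxin itself, *Txn1*, 7.57. *Txn1* was 10.8 times as abundant per kb as *Txnrd1* with merged exons and 5.36 times with principal transcripts. *Sesn2*, a stress-inducible sestrin, was the lowest at 1.16, followed by *Txnrd2*, described above, and *Prdx2* at 5.09.

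**Figure D3:**
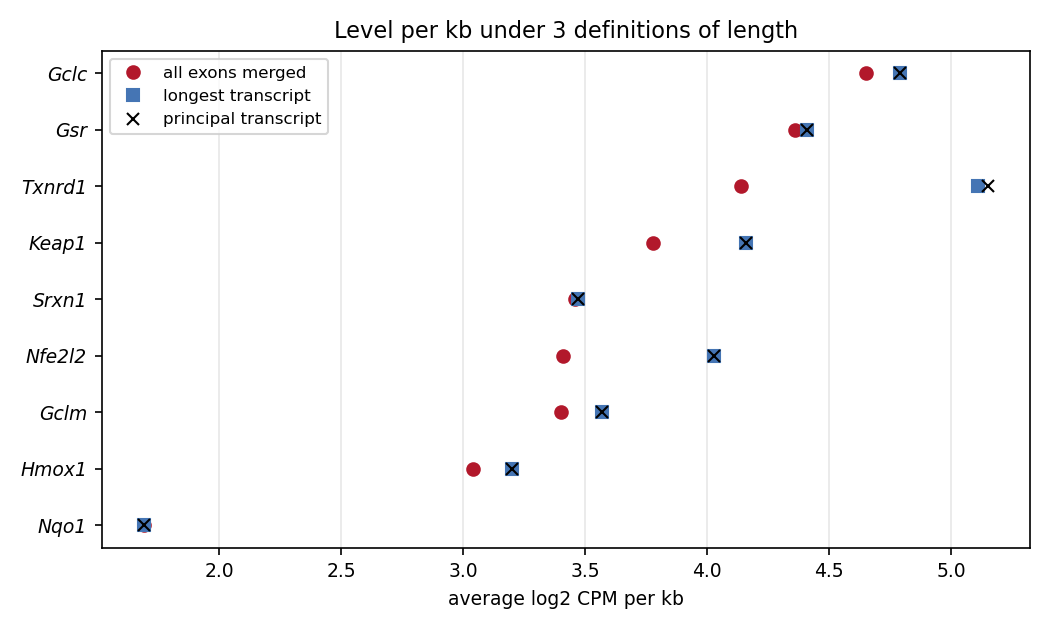
Average log2 CPM per kb of 9 genes under 3 definitions of length: all exons merged, the longest annotated transcript, and the principal transcript. *Txnrd1* moves most, from 4.14 to 5.15, and *Nqo1*, with a single annotated transcript, stays at 1.69; *Slc7a11* is left out because it had an estimated 5 reads in all.

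The members for quinones and heme, *Nqo1* and *Hmox1*, were the lowest after *Slc7a11*. *Nqo1* (chr8:107388225-107403206, minus strand), which reduces quinones by a pair of electrons and is widely used as a readout of NRF2 activity, had an average log2 CPM of 2.33 and, per kb, 1.69. With an estimated 136 reads per library it lay at percentile 66.6. Against only the genes with an average log2 CPM of at least 0 it stood at percentile 48.4, just under the middle. Its paralog *Nqo2*, which uses another hydride donor, was 7.28 times as abundant per kb (95% counting interval 6.85 to 7.73).

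*Hmox1* (chr8:75093621-75100589, plus strand), the inducible heme oxygenase, had 3.85 and 3.04 per kb, from an estimated 394 reads per library. It was 2.57 times as abundant per kb as *Nqo1* (95% counting interval 2.40 to 2.76). The constitutive heme oxygenase *Hmox2* exceeded *Hmox1* 4.12 times per kb and 4.74 times with principal transcripts. For *Nqo1* and for *Hmox1*, the paralog thus had the higher level as counted. Exons of *Nqo2* and *Hmox2* overlap those of protein-coding genes on the other strand, *Serpinb6a* and *Cdip1*. As the strand setting of the counting is not given, some reads counted for the paralogs could belong to those genes. How much of either ratio rests on such reads was not tested. *Hmox1* is also known as a gene of macrophages that clear red blood cells. Its level lay within the range of the 5 Kupffer cell and macrophage markers, and their part in it was not tested.

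With merged exons the 9 wider genes for quinones, heme and iron lay above the median of genes with reads, with a median of 4.67 per kb. With longest or principal transcripts, or without division by length, 8 of the 9 did, *Akr1b8* being the exception. Ferritin, which stores the iron that heme oxygenase releases, led them, with 10.18 for the light chain *Ftl1* and 8.99 for the heavy chain *Fth1*. *Blvrb*, a flavin and biliverdin reductase, had 5.62, 6.00 times the level of *Hmox1* per kb with merged exons and 14.6 times with principal transcripts. *Blvra*, which turns biliverdin into bilirubin, had 2.34, and *Akr1b8*, an aldo-keto reductase, had the lowest level, 0.29, with *Aox1* at 3.08.

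**Figure D4:**
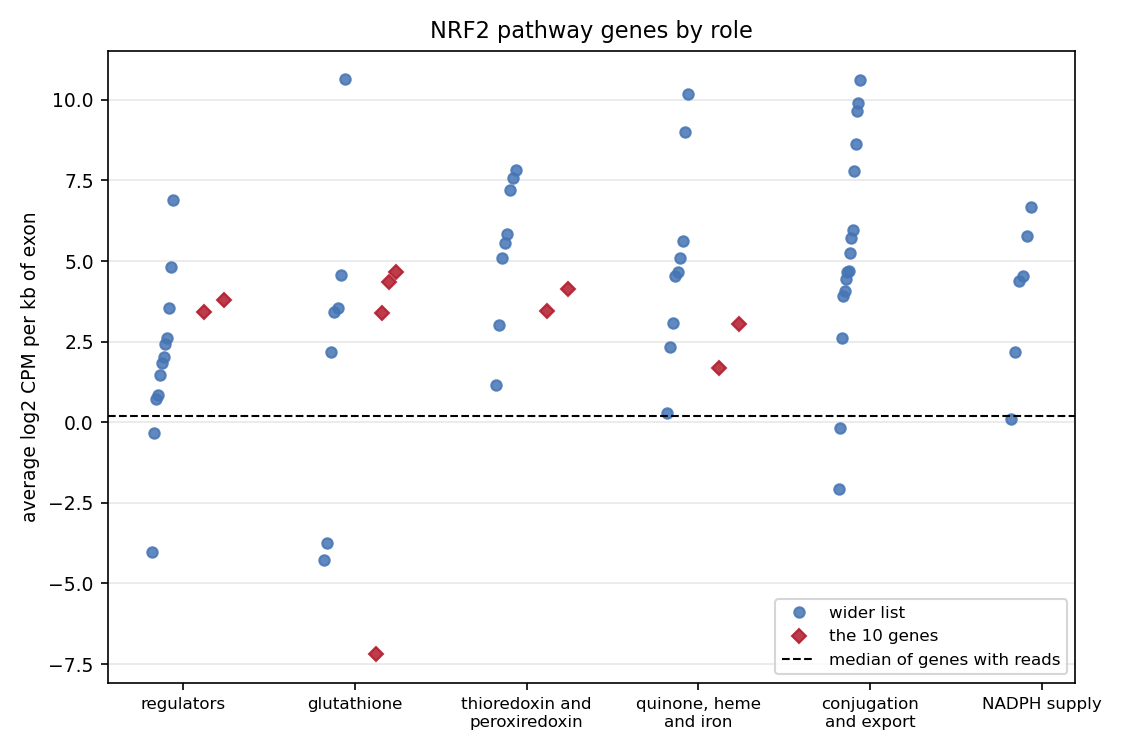
Average log2 CPM per kb of exon for the 58 genes of the wider list (blue circles) and the 10 genes (red diamonds) by role, with the median of genes with reads as a dashed line. The conjugation, ferritin and peroxidase genes reach up to 10.63, while 9 of the 10 genes fall between 1.69 and 4.65.

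Conjugation and export genes, of which 16 were listed, ran from -2.06 to 10.62, and 14 of them were above the median of genes with reads. With merged exons *Mgst1*, a microsomal glutathione transferase, was the highest at 10.62 per kb, followed by the cytosolic transferases *Gstm1* and *Gstp1* at 9.90 and 9.66. With principal transcripts the order after *Mgst1* was *Gstp1*, *Gsta3* and *Gstm1*, at 10.58, 10.22 and 10.10. *Gsta1*, which serves as an inducible transferase, had -0.19, and the exporter *Abcc4* -2.06, with *Ugt1a6a* at 2.61. Members of the *Gsta* and *Gstm* families are similar in sequence, so reads could have been split among them. The glucuronidation gene *Ugt1a6a* shares exons with its neighbours, and its value is uncertain for that reason.

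The 6 genes of NADPH supply had a median of 4.45 per kb. *Idh1*, cytosolic isocitrate dehydrogenase, was the highest at 6.68, and *Taldo1* and *Me1*, transaldolase and malic enzyme, had 5.79 and 4.52. *G6pdx*, the entry enzyme of the pentose phosphate pathway, was the lowest at 0.11 and the only one of the 6 below the median of genes with reads, with *Pgd* at 2.18 and *Tkt* at 4.39.

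Over the whole wider list, 51 of 58 genes were above the median of genes with reads and 31 above the 90th percentile, against 9 and 2 of the 10 members. The median average log2 CPM per kb was 4.49 in the wider list and 3.44 in the members. These lists were chosen by known function and with earlier results of these data known, so the counts describe them and test nothing. Promoter windows were given for 54 of the 58 wider genes, and 15 of the 54 held the core TGACNNNGC, among them *Prdx1*, *Mgst1*, *Me1*, *Pgd*, *G6pdx*, *Ugdh* and the small MAF genes *Maff*, *Mafg* and *Mafk*. That is 27.8% of these genes, beside the 14.0% of all genes with a window and 16.4% of those with reads given above. Genes with a core were found at both ends of the range of levels, with *Mgst1* at 10.62 and *Ggt1* at -4.26. *Ggt1* had only 2.9 estimated reads per library, so its level is partly set by the prior count.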

How the data were processed

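Liver RNA of 4 wild-type and 4 V227A mice was converted to stranded poly-A libraries and sequenced from both ends. Trimmomatic, RNA STAR (on GRCm38), featureCounts and edgeR were run by the authors. Versions, annotation and strand setting are not given in the sources used here. The average log2 CPM of each gene over all libraries was computed by the authors before it was deposited. The 4 other columns (fold change, F, p and adjusted p of V227A against wild-type) hold the authors' own comparison and were not used, and the planned comparison of genotypes was therefore not made.

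Genes at the lowest value (-3.78, 8242 genes) were taken as without reads. With a prior count of 2, this value gives the mean library size and each gene's estimated reads. As a check, 2378 genes came out at 1 to 5 reads over all libraries, and for 99.9% of them the estimate was whole to within 0.1. Lengths came from GENCODE vM21 (GRCm38), for 94.8% of genes with reads, matched by Ensembl ID or symbol. All gene coordinates are from GENCODE vM21 and promoter windows from RefSeq (GRCm38.p6). Both scripts were tested on simulated data. For read totals the simulated averages followed the same formula that the estimate inverts. That test therefore checks the code and not whether the authors' averages follow the formula. Python 3.11.15, numpy 2.4.6, pandas 2.3.3, scipy 1.17.1 and matplotlib 3.10.9 were used. Named were the 10 members, in each role of the wider list the 3 highest and 3 lowest genes, and of each marker list the highest and lowest. Other genes named were chosen after their values were seen. Members and lists were chosen with earlier results of these data known. Alternatives covered length, the genes ranked against, prior count, motif and window.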

Additional observations from a re-analysis of the deposited data

How the results depend on the processing

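The count of members above the median of genes with reads was 9, and it ran from 8 to 9 over the 5 alternatives. For the wider list it was 51, and ran from 46 to 54 over 5, of which both transcript lengths, added after seeing the data, gave 51. The count of member genes with an ARE core was 4 of 7. It was 6 with the looser core TGANNNNGC, 5 with TGACNNNGC or TGAGNNNGC, 3 with only the bases before the start, and 2 with the stricter core TGACNNAGC. In the wider list it was 15 of 54, and became 30, 23, 13 and 8 under the same alternatives. Of all genes with a window, 45% held the looser core, 30.8% either form, 11.5% the core before the start and 4.42% the stricter core. Among those with reads these shares were 47.4%, 34.8%, 13.6% and 4.65%. The level per kb of 7 members rose by more than its counting error with the longest and with the principal transcript, and that of 3, *Slc7a11*, *Srxn1* and *Nqo1*, did not. Over the 10 members and the other ways of ranking, 29 percentiles moved beyond counting error and 1 did not. The prior count scales estimated reads in proportion, so that *Nqo1* had 68.0 reads per library with 1 and 272 with 4. The whole-number totals above were computed with 2. They would stay whole with 4, so whole numbers alone do not fix the prior count. No paired analysis was possible because the values used are averages over all libraries. For the same reason leaving out single libraries, another normalization, a count filter and other tests of genotype were not run. Depth limits *Slc7a11*, with an estimated 5 reads in all.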

Other observations

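Hepatocytes can make cysteine from methionine through transsulfuration, and the genes of that route, chosen after values had been seen, were among the most abundant here. *Mat1a*, which makes S-adenosylmethionine in liver, had an average log2 CPM per kb of 9.74, and *Gnmt*, which consumes it, 10.48. *Ahcy*, which releases homocysteine, had 7.55. *Cbs* and *Cth*, which pass the sulfur of homocysteine to cysteine, had 6.03 and 6.70, against 4.65 for *Gclc* and an estimated 5 reads in all for *Slc7a11*. The source of cysteine in these livers was not measured, and a link between these levels was not tested. Per kb, *Cbs* was 2.59 times and *Cth* 4.13 times as abundant as *Gclc*, and all 5 genes lay at or above percentile 96.4 of genes with reads. *Ppara*, the gene that carries the V227A substitution, had 6.43 per kb, above each of the 10 NRF2 genes.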
